A study of Mus musculus with 2 samples.

Results

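The cells described here are 140 cardiac fibroblasts with the highest combined level of 6 genes: Adamtsl2, Cyp4b1, Fhl2, Mfap4, Apod and Trib2. They were taken from 1145 fibroblasts among 1426 heart cells in all. A cell counted as a fibroblast where the mean deposited value of the matrix genes Dcn, Col1a2, Lum and Col3a1 was at least 1.5 and above that of the macrophage genes Lyz2, C1qa, C1qb and Fcer1g. Each of the 6 genes was turned into a z-score over all fibroblasts (its distance from the mean in standard deviations), and the 140 cells with the highest mean z are called members here. The members therefore stand high in these genes by choice, and their levels of them are given as a description.

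The cells came from hearts of C57BL/6 mice aged 20 to 22 months that carry p16-FDR, an allele holding the FLP recombinase and a diphtheria toxin receptor fused to the red fluorescent protein mCherry. Cells positive for mCherry were sorted by flow cytometry and profiled with droplet 3' RNA sequencing, which counts transcripts by unique molecular identifiers (UMIs). There are 2 samples, both of 1 group, with no unsorted, young or mCherry-negative cells among the samples analysed here, and the labels do not say whether the 2 came from separate animals. Each cell's name starts with 1 of 2 library names, Heart1 or Heart2, which cannot be tied to the sample records.

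Fibroblasts build and remodel the collagen, elastic fibre and proteoglycan scaffold of the heart. Microfibrils made of fibrillin are the frame on which elastin is laid down, and they also hold the growth factor TGF-beta in a latent form through its binding proteins. Adamtsl2 is a secreted glycoprotein that binds to these microfibrils and is known to restrain TGF-beta, and Mfap4 is a microfibril-associated glycoprotein that binds elastin. The other 4 genes belong to other processes: Cyp4b1 is a cytochrome P450 that oxidizes fatty acids and foreign compounds, Apod is a lipid-carrying lipocalin, Fhl2 is a LIM-domain partner of transcription factors and of the contractile apparatus, and Trib2 is a pseudokinase that steers protein degradation.

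Heart1 held 266 cells and Heart2 held 1160, with 0 cell barcodes shared between them. Members made up 41 of 206 fibroblasts in Heart1, or 19.9% (exact binomial 95% interval 14.7 to 26.0%), and 99 of 939 in Heart2, or 10.5% (8.65 to 12.7%). Such intervals cover counting error only, and the sort and the cut of the score set these shares. The members of Heart1 carried 539798 UMIs (median 12631 per cell, against 11819 in the other 165 fibroblasts), and those of Heart2 carried 893638 (median 9068, against 8684 in the other 840). The median mitochondrial share was 3.55% in members and 3.30% in the others of Heart1, and 5.06% and 5.18% in Heart2. No member was among the 4 cells of Heart1 and the 2 of Heart2 predicted to be doublets.

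The score ran without a break through the cut. It reached 2.48 at the top, had a median of 0.898 in members and -0.193 in the other fibroblasts, and was 0.569 in the last member and 0.563 in the first cell left out. Within 0.05 of the cut lay 14 members and 22 other cells, so the members are the upper end of a continuous range of this score. Whether a separate type lies among them was not tested, and the score alone cannot show it. No member had a UMI of all 6 genes: 3 members had 1 of them, 26 had 2, 63 had 3, 39 had 4 and 9 had 5. Among the other fibroblasts, 65 had 3 or more of the 6 genes and 296 had none.

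**Figure D1:**
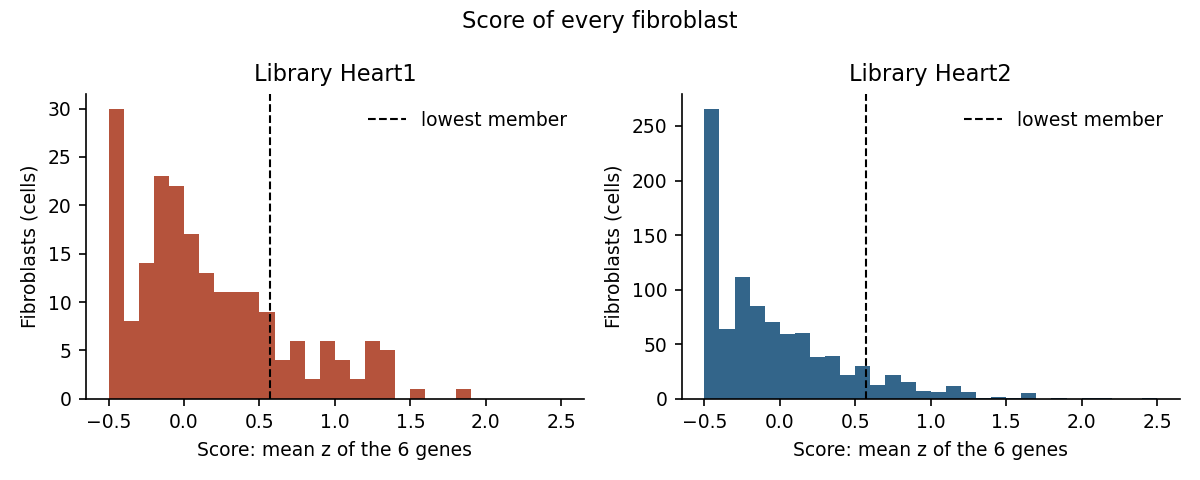
Number of fibroblasts (vertical axis) by their score, the mean z of the 6 genes (horizontal axis), in Heart1 and Heart2, with a dashed line at the lowest member (0.569). The bars go on across the line in both libraries, with no gap at the cut.

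The members did not form a population marked by Adamtsl2 and Cyp4b1 together. A UMI of Adamtsl2 without Cyp4b1 was found in 92 of the 140 members (65.7%), of Cyp4b1 without Adamtsl2 in 19 (13.6%), of both in 5 (3.57%) and of neither in 24 (17.1%). Because a cell low in one gene needs others to reach the cut, this split within members is partly set by the rule, so the same count was made over all fibroblasts. There Adamtsl2 had a UMI in 265 cells and Cyp4b1 in 41, and 6 cells had both, which is 14.6% of the Cyp4b1 cells and 2.26% of the Adamtsl2 cells. The share of all fibroblasts with Adamtsl2 was 23.1%, and that with Cyp4b1 was 3.58%. With only 41 Cyp4b1 cells, these shares do not show that the genes go together, nor that they avoid each other. The label that joins the 2 genes is therefore not borne out here. The cells are called by their rule, high-score fibroblasts or members.

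Adamtsl2 ran with Mfap4. Of the 265 fibroblasts with an Adamtsl2 UMI, 212 (80.0%) also had Mfap4, against 52.8% of all fibroblasts. Across the 1145 fibroblasts Pearson's r of their log values was 0.46 (0.55 in Heart1 and 0.42 in Heart2), and the other 14 pairs of score genes lay between -0.044 and 0.12, with -0.037 for Adamtsl2 and Cyp4b1. These are descriptions across single cells that share libraries and depth, and values as low as those of the 14 pairs are no finding in sparse counts. The gene with the highest z in a member was Adamtsl2 in 39 members, Fhl2 in 27, Trib2 in 25, Apod in 22, Cyp4b1 in 20 and Mfap4 in 7. Cyp4b1 was rare, so 1 positive cell gained much from it: its median z where detected was 4.26, against 0.612 for Mfap4.

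The stretch before the start of both genes in the label is shown as a description only. The 250 bases upstream of each start, from RefSeq on the mouse build GRCm38.p6, are written 5′ to 3′ on the gene's strand, with matches to the motifs searched in capitals. Adamtsl2 lies on the plus strand, with its promoter at chr2:27079129-27079378, and Cyp4b1 on the minus strand, with its promoter at chr4:115647722-115647971.
Adamtsl2: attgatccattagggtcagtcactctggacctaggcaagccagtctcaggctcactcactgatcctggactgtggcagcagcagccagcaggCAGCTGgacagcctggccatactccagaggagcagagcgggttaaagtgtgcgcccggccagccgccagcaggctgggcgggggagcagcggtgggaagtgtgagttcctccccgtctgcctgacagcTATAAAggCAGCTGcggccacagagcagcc
Cyp4b1: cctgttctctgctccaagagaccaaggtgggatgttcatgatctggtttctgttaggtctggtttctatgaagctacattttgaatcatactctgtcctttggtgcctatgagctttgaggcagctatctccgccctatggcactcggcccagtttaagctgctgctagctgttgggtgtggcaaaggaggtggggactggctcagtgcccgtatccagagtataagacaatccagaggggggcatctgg

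The Adamtsl2 stretch holds the E-box CAGCTG at 158 and 22 bases before the start and the TATA motif TATAAA at 30 bases before it. The Cyp4b1 stretch holds none of the 9 motifs searched. Promoters were found for 5 of the 6 score genes, 6 promoters in all, and both strands were searched from 250 bases before to 50 after each start. CAGCTG was also in the Apod promoter, 35 bases after the start, and was in 16.3% of all 32851 mouse promoters of the same window. TATAAA was also in an Fhl2 promoter and was in 13.6% of all promoters, and the GATA motif AGATAA was in the same Fhl2 promoter and in 11.2% of all. The other letters searched were GGAATG for TEAD (14.7% of all promoters), CAGACA for SMAD (21.0%), TTGCGCAA for C/EBP (0.183%), TGACTCA for AP-1 (5.20%), GTAAACA for FoxO (3.65%) and TGACGTCA for CREB (1.79%), and the 6 score-gene promoters held none of these. A match describes letters in this window only, and it is neither a site nor a cause.

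The score genes themselves stood as follows, in CPM, that is UMIs of the gene in the summed cells, divided by all their UMIs and scaled alike in every group, with no test since they chose the members. Adamtsl2 was at 424 CPM in members and 42.5 in other fibroblasts of Heart1, and at 220 and 25.7 in Heart2. Mfap4 was at 1793 and 464 CPM in Heart1 and at 1645 and 410 in Heart2. Both genes stood apart by a like amount in both libraries, and Adamtsl2 had a UMI in 35 of 41 members of Heart1 and 62 of 99 of Heart2. Cyp4b1 differed between the libraries: it was at 7.41 CPM in members (2.02 to 19.0, exact Poisson 95% interval) and 2.28 in the others (0.742 to 5.33) of Heart1, and at 35.8 (24.5 to 50.6) and 1.98 (1.11 to 3.27) in Heart2. The Heart1 intervals overlap and only 3 of 41 members there had a Cyp4b1 UMI, against 21 of 99 in Heart2, so that gene marks few members of Heart1.

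Among the remaining genes, Fhl2 was at 117 CPM in members and 32.0 in the others of Heart1 and at 130 and 19.6 in Heart2. Apod was at 174 and 38.8 CPM in Heart1, where 1 cell held 33.0% of the members' UMIs, and at 288 and 47.9 in Heart2. Trib2 was at 55.6 and 19.2 CPM in Heart1 and at 56.0 and 10.6 in Heart2. In 37 macrophages of Heart1 (median 8133 UMIs) 1 cell had an Adamtsl2 UMI and 0 a Cyp4b1 UMI, which allows a share of up to 8.11%, and in 210 macrophages of Heart2 (median 9642 UMIs) 1 cell had Adamtsl2 and 0 had Cyp4b1, which allows up to 1.43%. The members' shares with Adamtsl2 were 85.4% and 62.6% (58.5% and 37.4% with every cell thinned to 3000 UMIs). Members were chosen in part by this gene, so the rule sets these shares in part. Over all fibroblasts, which were not chosen by it, the shares were 38.8% in Heart1 and 19.7% in Heart2. In macrophages they were 2.70% and 0.476%.

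**Figure D2:**
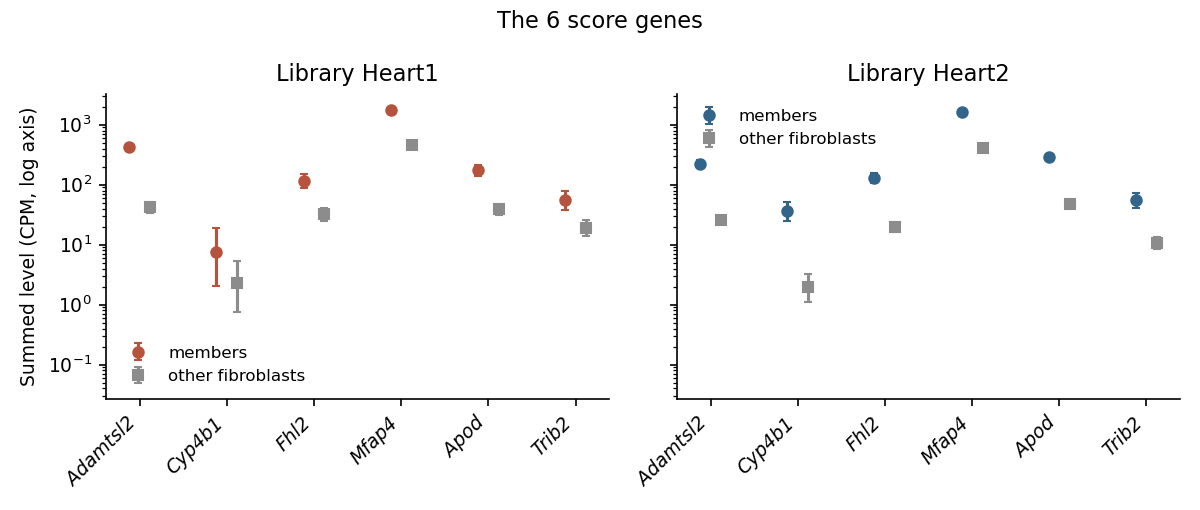
Summed level of the 6 score genes in CPM on a log axis, in members (coloured circles) and other fibroblasts (grey squares) of each library, with exact Poisson 95% intervals. Members are above the others by choice; the intervals overlap for Cyp4b1 in Heart1.

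To see how far each gene went with the rest of the score, the 140 cells were chosen again from the other 5 genes alone, and the gene left out was read in them. Adamtsl2 and Mfap4 stayed higher in the cells so chosen in both libraries, and Cyp4b1 did not. Adamtsl2 had a UMI in 61.5% of the cells chosen without it and 33.5% of the others in Heart1, and in 38.6% and 17.4% in Heart2, a difference of 2.24 and 1.37 on the scale of log2(CPM + 5). Mfap4 differed by 1.33 and 0.98 on that scale, Fhl2 by 0.99 and 0.68, and Trib2 by 0.69 and 0.49. Apod was lower in Heart1 (-0.58) and higher in Heart2 (1.23). Cyp4b1 differed by 0.065 in Heart1 and -0.0042 in Heart2, with a UMI in 4.76% of the chosen and 2.44% of the other cells in Heart1 and in 5.10% and 3.57% in Heart2. These are the same cells that gave the score, so the values are descriptions and carry no test. Choosing without Adamtsl2 kept 106 of the 140 members, and choosing without Cyp4b1 kept 123.

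The rest of the transcriptome was compared by summing the UMIs of members and of the other fibroblasts within each library. A gene was called where members differed by at least 1.5-fold in the same direction in both libraries, on the scale of log2(CPM + 5), with a mean of at least 20 CPM. The 14 genes used by the rule were left out. Since the members were picked from these same cells, no p-value is given. Of 6289 genes, 47 were called higher in members (0.747%) and 36 lower (0.572%), and 35 passed 1.5-fold in opposite directions in the 2 libraries (0.557%). Leaving each gene's highest cell out of every sum (an alternative chosen after the values were seen), which takes the larger share from the members as the smaller group, gave 29 higher, all among the 47, and 79 lower, with 35 of the 36. At 2-fold, 8 were higher (0.127%) and 9 lower (0.143%). In a single library 327 genes were higher (5.2%) and 411 lower (6.54%) by 1.5-fold in Heart1, and 148 (2.35%) and 151 (2.4%) in Heart2. All differences of single genes below are on this scale, which understates changes of low genes, and the median over all genes was -0.029 in Heart1 and -0.021 in Heart2.

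**Figure D3:**
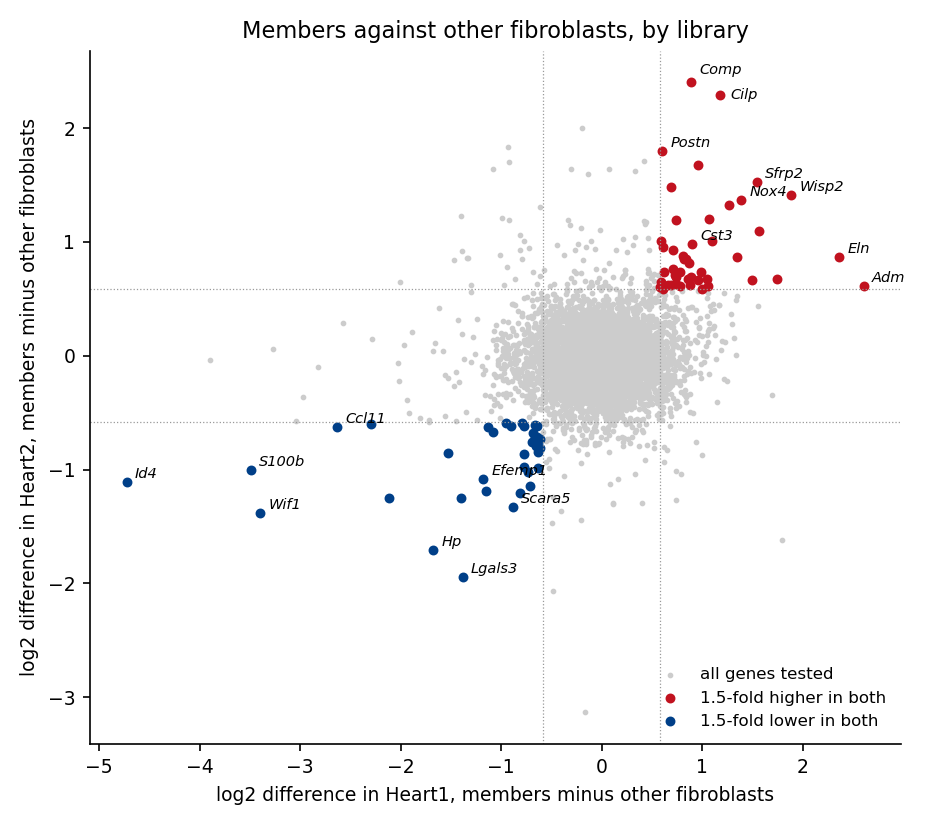
Difference between members and other fibroblasts in log2(CPM + 5) for 6289 genes, Heart1 on the horizontal and Heart2 on the vertical axis, with dotted lines at 1.5-fold. Red points are the 47 genes called higher in both libraries and blue points the 36 called lower; grey points are all other genes, most of them near 0 in both.

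Some matrix genes of a fibrotic type were higher in members. Cilp, a matrix protein first known from cartilage, was at 1591 CPM in members and 699 in the others of Heart1 and at 516 and 101 in Heart2, differences of 1.18 and 2.29. It had a UMI in 35 of 41 members of Heart1 and in 37 of 99 of Heart2, so most members of Heart2 had none. With members picked by a score from cells thinned to 3000 UMIs, its mean difference over both libraries was 1.06 in place of 1.74. Wisp2, a matricellular protein of the CCN family, was at 672 and 178 CPM in Heart1 and at 239 and 86.9 in Heart2 (1.89 and 1.41). Comp, an oligomeric matrix protein of cartilage and tendon, was at 1300 and 699 CPM in Heart1 and at 383 and 68.3 in Heart2 (0.89 and 2.40). A Comp UMI was found in 22 of 41 members of Heart1 and 21 of 99 of Heart2, and 1 cell held 26.8% of the members' UMIs in Heart1 and 27.2% in Heart2. With members picked from thinned cells, its mean difference was 0.16 in place of 1.65.

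Postn, the matricellular protein periostin of activated fibroblasts, was at 2701 CPM in members and 1780 in the others of Heart1 and at 787 and 223 in Heart2, differences of 0.60 and 1.80. In Heart1 it had a UMI in 63.4% of members and 60.0% of the others, so there it was about as often detected in both, and in Heart2 in 28.3% and 11.0%. Its mean difference of 1.20 was 0.24 with every cell holding a Comp UMI left out, 0.35 with members picked from thinned cells and 0.58 with members picked without Mfap4. Without its highest cell in each sum Postn differed by 0.49 in Heart1, which is under 1.5-fold and ends its call. Pmepa1, a TGF-beta target that limits its signalling, differed by 0.82 and 0.85.

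Cilp, Comp, Postn and Pmepa1 were among the genes called higher in a list of 20 TGF-beta targets and fibrosis genes, of which 0 were lower. The list's median difference was 0.38 in Heart1 and 1.12 in Heart2. In both libraries 11 of the 20 were above 0, against 22.6% of all genes, and 1 was below 0, against 30.2%. Several others went apart between the libraries. The contractile genes Acta2 (-0.62 in Heart1 and 1.31 in Heart2) and Tagln (-1.47 and 0.84), the collagen-linked Cthrc1 (-0.20 and 2.00) and the latent TGF-beta binding protein Ltbp2 (-0.31 and 1.64) were lower in members of Heart1 and higher in those of Heart2. Thbs4, an adhesive matrix protein, went the other way (0.74 and -1.27), but 1 member held 65.4% of the members' UMIs in Heart1, and without the highest cell of each sum it was at -0.34 and -1.42. In Heart2 Thbs4 had a UMI in 5.05% of members and 1.31% of the others, so its level was lower there but not its share of cells. Acta2 had a UMI in 5 members of Heart1 and 19 of Heart2, so the contractile genes rest on few cells. The matrix gene Fn1 was not called, with a mean difference of -0.43. Without the highest cell of each sum Fn1 differed by -1.79 and -1.54 and was called lower. Tnc was not called with those cells or without them (-2.19 and 0.30 without).

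The genes of the microfibril and elastic fibre, the system of Adamtsl2 and Mfap4, held a call in each direction. Of 24 such genes, 1 was higher and 1 lower, against 0.747% and 0.572% of all genes. With 1 gene each way, no result about the whole list is drawn from these counts. The median difference was 0.48 in Heart1 and 0.060 in Heart2, and 12 were above 0 in both libraries, against 22.6% of all genes. Eln, elastin itself, was at 606 CPM in members and 114 in the others of Heart1 and at 399 and 216 in Heart2 (2.36 and 0.87). Efemp1, the fibulin-3 of the same fibres, was lower: 120 and 279 CPM in Heart1 and 273 and 586 in Heart2 (-1.18 and -1.09). Fibrillin, Fbn1, was at 465 and 325 CPM in Heart1 and 327 and 305 in Heart2, which was not called.

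The TGF-beta pathway upstream of these targets held 1 call, against 1.32% of all genes called in either direction. Of 15 genes for ligands and latent binding, 1 was called, the integrin Itgb5 (0.99 and 0.74), a chain of an integrin that activates latent TGF-beta. Of the ligands, Tgfb1 was at 94.5 CPM in members and 142 in the others of Heart1 and at 96.2 and 54.9 in Heart2, in opposite directions. Tgfb3 was at 74.1 and 53.4 CPM in Heart1 and 54.8 and 39.0 in Heart2, and Tgfb2 at 66.7 and 96.4 and at 78.3 and 104, neither of them called. Of 18 receptors and SMADs, 0 were called in either direction. Of 12 BMP antagonists and targets, 1 was lower, Id4, described below.

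Small leucine-rich proteoglycans, which coat collagen fibrils, were represented by 8 genes. Of these 2 were higher and 0 lower (medians 0.73 and 0.35), against 0.747% and 0.572% of all genes. Asporin, Aspn, which binds collagen and TGF-beta, was at 1078 CPM in members and 517 in the others of Heart1 and at 794 and 496 in Heart2. Osteomodulin, Omd, was at 25.9 and 10.5 CPM in Heart1 and at 42.5 and 26.6 in Heart2, and without its highest cell in each sum it differed by 0.34 in Heart2, which ends its call. Of 29 other matrix genes, 1 was higher, Svep1, a large adhesion protein (1.75 and 0.68), and 1 lower, Vit. Outside the lists, the collagen Col8a1 of vessel and endothelial matrix was at 997 and 474 CPM in Heart1 and at 650 and 280 in Heart2 (1.07 and 1.20). Itgbl1, a secreted integrin-like protein, was at 524 and 174 CPM in Heart1 and at 320 and 147 in Heart2 (1.57 and 1.10), with a UMI in 40 of 41 and 86 of 99 members.

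The secreted protease inhibitor cystatin C, Cst3, was higher in members. It was at 9689 CPM in members and 5195 in the others of Heart1 and at 7688 and 3900 in Heart2 (0.90 and 0.98), with a UMI in every member and every other fibroblast. In Heart1 it was at 9321 CPM in the 35 cells next in the score and at 3979 in the rest, so those next cells were near the members' level. Nox4, an NADPH oxidase that makes hydrogen peroxide, was at 79.7 and 27.4 CPM in Heart1 and at 55.9 and 18.7 in Heart2 (1.39 and 1.37). Adm, the vasodilator peptide adrenomedullin, was at 165 and 22.8 CPM in Heart1 and at 187 and 120 in Heart2 (2.61 and 0.62), with a UMI in 14 of 41 and 40 of 99 members; without its highest cell in each sum it differed by 0.42 in Heart2, which ends its call. The members' levels were near each other in the 2 libraries, and the level of the other cells was lower in Heart1 than in Heart2. Angptl7, a secreted angiopoietin-like protein, differed by 1.35 and 0.87, and Clec14a by 1.26 and 1.33 in 10 and 21 members. Dio2, which activates thyroid hormone, differed by 0.69 and 1.48 but had a UMI in only 4 members of Heart2.

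Wnt modulators went both ways, with 2 of 12 genes higher and 2 lower, against 0.747% and 0.572% of all genes. Sfrp2, a secreted Wnt modulator, was at 195 CPM in members and 63.5 in the others of Heart1 and at 96.2 and 30.2 in Heart2 (1.54 and 1.53). In Heart2 this rested on 10 of 99 members (10.1%, against 7.86% of the others), so there the level differed more than the share of cells. With members picked without Mfap4 its mean difference was 0.69 in place of 1.53. The Wnt receptor Fzd2 was higher (0.89 and 0.69). Wif1, a secreted Wnt inhibitor, was at 38.9 and 458 CPM in Heart1 and at 2.24 (0.271 to 8.08, from 2 UMIs) and 13.9 (11.4 to 16.8) in Heart2. The Wnt ligand Wnt11 was also lower (-0.66 and -0.71).

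Id4, an inhibitor of DNA-binding transcription factors, was lower in members. It was at 7.41 CPM in members and 323 in the others of Heart1 and at 5.60 and 17.9 in Heart2 (-4.73 and -1.11), the largest mean difference of any called gene. In Heart2, 1 cell held 57.8% of the other fibroblasts' Id4 UMIs, and 5.05% of members had a UMI against 3.57% of the others. Without the highest cell of each sum Id4 was at 4.51 and 7.56 CPM there, a difference of -0.40 that ends its call, and at 5.73 and 298 CPM in Heart1 (-4.82). Markers of valve-like fibroblasts, a list that holds Wif1, summed to 348 CPM in members and 1192 in the others of Heart1, and to 163 and 82.7 in Heart2, with 3 of 6 at 0 in members of each library. With the cells that had a Wif1 UMI left out (an alternative chosen after the values were seen), the mean difference of Id4 was -1.73 in place of -2.92, and that of S100b, a calcium-binding protein, -1.34 in place of -2.25. Any further part of such cells in these results was not tested.

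Several genes of secreted proteins and receptors were lower in members too. Scara5, a ferritin receptor, was at 42.6 CPM in members and 82.7 in the others of Heart1 and at 95.1 and 247 in Heart2 (-0.88 and -1.33). Ccl11, the eosinophil attractant eotaxin-1, was at 3.71 (2 UMIs, from 1 member) and 48.9 CPM in Heart1 and at 142 and 222 in Heart2 (-2.63 and -0.62), with a UMI in 18 members of Heart2. Among 23 chemokines and cytokines, 0 were higher and 3 lower, against 0.747% and 0.572% of all genes. Besides Ccl11 the lower ones were Cxcl1, a neutrophil attractant, and Vegfa, the angiogenic factor (-0.63 and -0.98). Receptors Npr1, for natriuretic peptides (-2.29 and -0.60), and Calcrl, for adrenomedullin and its relatives (-0.63 and -0.85), were the 2 lower of 20 growth factor receptors and signalling genes, with 0 higher. The acute-phase protein haptoglobin, Hp (-1.68 and -1.71), galectin-3, Lgals3 (-1.38 and -1.94), and autotaxin, Enpp2 (-0.77 and -0.87), were lower. For Lgals3, 1 cell held 54.3% of the other fibroblasts' UMIs in Heart1 and 67.2% in Heart2, and without the highest cell of each sum it differed by -1.05 and -0.77. Hp was found in 1 member of Heart1, with 2 UMIs, and in 2 members of Heart2.

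The lists around the other 4 score genes held few calls, and 1.32% of all genes were called in either direction. At that share lists of this size hold few or no calls, so these counts are no result about the families. Of 21 cytochrome P450 and retinoid genes, the family of Cyp4b1, 0 were higher and 1 was lower: Por, the reductase that passes electrons to microsomal P450 enzymes (-0.61 and -0.73). Of 34 detoxification and antioxidant genes 0 were higher and 1 lower, the metallothionein Mt2 (-1.52 and -0.85). Of 24 lipocalin and lipid transport genes, the group of Apod, 0 were called in either direction, as with 35 LIM, actin and focal adhesion genes around Fhl2 and 20 tribbles, C/EBP and FoxO genes around Trib2. Of 14 YAP, TEAD and SRF targets, 1 was higher, Cyr61 (0.18 and 0.48 without its highest cell in each sum, which ends its call). Of 31 cardiac fibroblast transcription factors, 0 were higher and 1 lower, Gata4 (-1.13 and -0.63).

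Other lists also held few or no calls, against 1.32% of all genes called in either direction. None were called among 12 metalloproteinases and inhibitors, 9 IGF genes, 11 complement genes, 21 interferon-stimulated genes and 12 mitochondrial transcripts. Of 26 immediate early and dissociation stress genes, 0 were called, and 15 lay below 0 in both libraries against 30.2% of all genes, with medians of -0.14 and -0.19. Of 4 proliferation genes, 1 was higher, the cyclin Ccnd1.

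Cdkn2a, the gene of p16 that drives the sorted reporter, had a UMI in a lower share of members than of other fibroblasts in both libraries. It had a UMI in 9 of 41 members (22.0%, exact binomial interval 10.6 to 37.6%) and 63 of 165 other fibroblasts (38.2%, 30.7 to 46.1%) of Heart1, and, with each cell thinned to 3000 UMIs, in 4.88% and 20.0%. In Heart2 it had a UMI in 0 of 99 members, which allows a share of up to 3.03%, and in 7 of 840 others (0.833%). The intervals of Heart1 overlap before and after thinning (0.596 to 16.5% and 14.2 to 26.9% after it), and a difference in Heart2 was not detectable at this depth. Its level was 25.9 CPM in members (14.2 to 43.5, exact Poisson interval) and 96.4 in the others (83.8 to 110) of Heart1, where the intervals do not overlap, and 0 and 2.38 in Heart2.

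Of 11 senescence core genes tested, with Cdkn2a included, 0 were called higher or lower, with medians of -0.20 and -0.019. For Cdkn2a the call cannot show whether it was lower. It differed by -1.71 in Heart1 and -0.56 in Heart2. In Heart2 the members were at 0 CPM, the lowest level possible, and the others at 2.38. Even so the difference there stayed under 1.5-fold on this scale, so a lower call was out of reach. Cdkn1a, the p21 cell-cycle inhibitor, was at 191 CPM in members and 245 in the others of Heart1 and at 130 and 154 in Heart2. Cdkn2b, the p15 inhibitor next to Cdkn2a, was at 33.4 and 49.8 CPM in Heart1 and at 13.4 and 9.13 in Heart2, in opposite directions. Cdkn1c was at 98.2 and 58.5 CPM in Heart1 and at 92.9 and 94.2 in Heart2. Cdkn1b, Cdkn2c, Cdkn2d, Trp53, Rb1, Hmgb1, Hmgb2 and Glb1 had differences within 0.45 of 0 in both libraries, though Rb1 was under the minimum level. Lmnb1 was at 3.71 and 7.31 CPM in Heart1 and 4.48 and 5.95 in Heart2, too low to be compared. Of 10 p53 targets 0 were called, and 6 lay below 0 in both libraries.

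Markers of other fibroblast kinds and of other cells were read in the same sums. Of 5 matrifibrocyte markers tested, genes of the cartilage-like fibroblasts of a healed scar, 2 were higher, Comp and Angptl7, and the list summed to 3186 CPM in members and 1920 in the others of Heart1 and to 1042 and 403 in Heart2. The cartilage gene Chad was at 0 in members of both libraries and Cilp2 at 0 in those of Heart2 (7.41 and 3.65 CPM in Heart1), and no such name is given. Of 6 adventitial-type markers 1 was lower, Efhd1, and Pi16 was at 2119 and 1494 CPM in Heart1 and 1677 and 1582 in Heart2. The 8 adventitial-type markers together summed to 2645 and 1940 CPM in Heart1 and 2030 and 2098 in Heart2. Of 5 Hsd11b1 and Ccl11 fibroblast markers 1 was lower, Ccl11, and the list went apart between the libraries, summing to 1890 CPM in members and 1217 in the others of Heart1 and to 2225 and 3738 in Heart2. Its most abundant gene, the chemokine Cxcl14, was at 1465 and 729 CPM in Heart1 and 1434 and 2635 in Heart2, and Hsd11b1 at 176 and 175 in Heart1. Of 5 Inmt, Osr1 and Rspo1 fibroblast markers tested 1 was lower, Scara5, and the list of 6 summed to 863 and 523 CPM in Heart1 and 998 and 1249 in Heart2. Inmt itself was at 115 and 32.0 CPM in Heart1 and at 71.6 and 92.3 in Heart2.

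Macrophage markers summed to 3.71 CPM in members and 131 in the others of Heart1, with 11 of 12 at 0 in members, and to 14.5 and 19.6 in Heart2, with 6 of 12 at 0. Endothelial markers summed to 150 and 157 CPM in Heart1 and 70.5 and 122 in Heart2, with 7 and 8 of 12 at 0 in members. Pericyte and smooth muscle markers summed to 369 and 535 CPM in Heart1 and 356 and 313 in Heart2, with 2 and 0 of 10 at 0, and 1 of the 5 tested was lower, Mustn1. Cardiomyocyte markers summed to 111 and 53.4 CPM in Heart1 and 30.2 in both groups of Heart2, Schwann cell markers (4 of 8 in the table) to 356 and 211 and to 425 and 409, lymphocyte markers to 7.41 and 7.77 and to 1.12 and 0.926, and the 1 epicardial marker in the table, Wt1, was at 0 in members. The part of these in the differences above was not tested. The fibroblast markers Dcn, Pdgfra and Tcf21 were present in the members: Dcn had a UMI in every member, Pdgfra was at 343 and 234 CPM in Heart1 and 476 and 503 in Heart2, and Tcf21 at 272 and 259 and at 426 and 467.

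With both libraries pooled, several of the higher matrix genes were most often found in the members with Adamtsl2. Cilp had a UMI in 62 of the 92 members with Adamtsl2 alone (67.4%, exact binomial interval 56.8 to 76.8%), in 8 of 24 with neither gene (33.3%, 15.6 to 55.3%) and in 1 of 19 with Cyp4b1 alone (5.26%, 0.133 to 26.0%). Comp had a UMI in 44.6%, 8.33% and 0% of these cells, the last being 0 of 19, which allows a share of up to 15.8%. Wisp2 had one in 59.8%, 16.7% and 15.8%, and Sfrp2 in 30.4%, 4.17% and 5.26%. The cells with Cyp4b1 alone were shallower (median 8707 UMIs, against 10476 with Adamtsl2 alone), and after thinning to 3000 UMIs the shares for Cilp were 51.1%, 33.3% and 0% and those for Comp 39.1%, 8.33% and 0%. Library and group go together here, since 34 of the 92 cells with Adamtsl2 alone but 2 of the 19 with Cyp4b1 alone were from Heart1. In Heart2 alone, Cilp was in 55.2% of 58 members with Adamtsl2 alone, 20.0% of 20 with neither and 5.88% of the 17 with Cyp4b1 alone. There Comp was in 34.5%, 5.0% and 0%, Wisp2 in 46.6%, 20.0% and 11.8%, and Sfrp2 in 15.5%, 5.0% and 0%. In Heart1 Cilp was in 30 of 34 members with Adamtsl2 alone and in 4 of 4 with neither, at 1590 and 2344 CPM, so the order did not hold. Comp, Wisp2 and Sfrp2 were in 21, 28 and 19 of those 34 cells and in 1, 0 and 0 of those 4. In macrophages Cilp had a UMI in 0 of 37 and 0 of 210 cells, and Comp in 1 and 2.

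The members with Cyp4b1 alone held other genes. Ccl11 had a UMI in 10 of these 19 cells (52.6%), all in Heart2, and in 6.52% of members with Adamtsl2 alone and 12.5% with neither, and the level was 707, 13.1 and 24.8 CPM. Efemp1 had one in 84.2%, 52.2% and 62.5%, and Scara5 in 73.7%, 30.4% and 45.8%. Both are genes that were lower in members as a whole. In Heart2 the 17 cells with Cyp4b1 alone were at 525 CPM in Efemp1 and 204 in Scara5. All members there were at 273 and 95.1, and the other fibroblasts at 586 and 247. The cells with Cyp4b1 alone were thus near the level of the other fibroblasts in Heart2, and not above it. In Heart1 the 2 such cells were at 108 and 269 CPM, against 279 and 82.7 in the other fibroblasts. Cst3 was in every cell of all 3 groups, and Pmepa1 in 89.5% of those with Cyp4b1 alone and 98.9% with Adamtsl2 alone. Groups made from these 2 genes share the 2 libraries and are cells, not replicates, so no test is given.

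**Figure D4:**
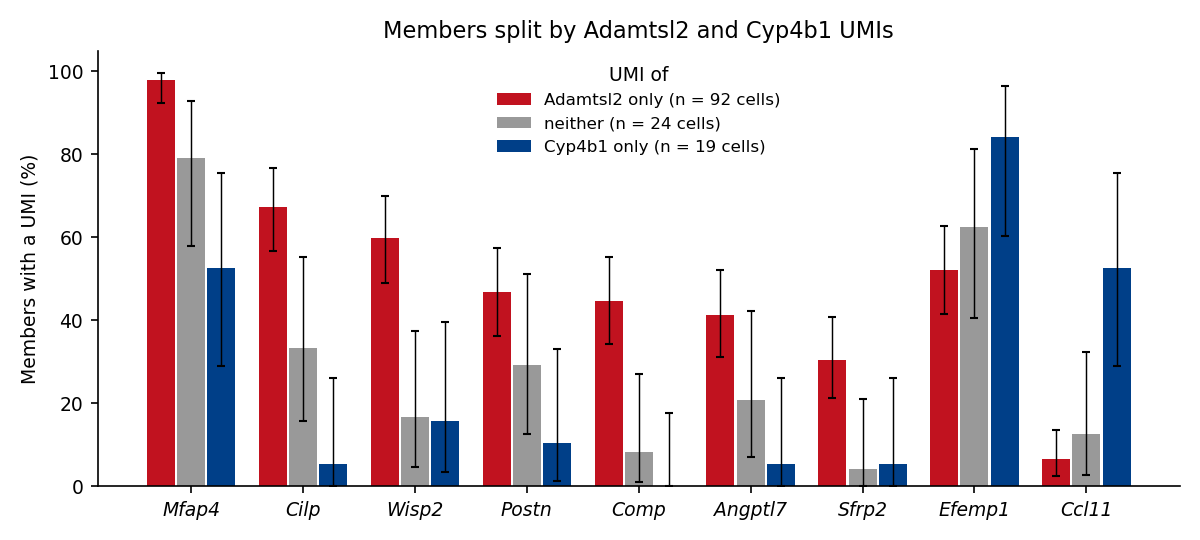
Share of members with a UMI of 9 genes (vertical axis, percent), for members with a UMI of Adamtsl2 only (92 cells), neither (24) or Cyp4b1 only (19), with exact binomial 95% intervals. With both libraries pooled, Cilp, Wisp2 and Comp are most often found with Adamtsl2, and Ccl11 with Cyp4b1.

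The same split was read over all fibroblasts, which the score does not select but which include the members. The 47 genes were picked from members chosen in part by Adamtsl2 and the other score genes. How many of all 6289 genes passed in each split was not counted, so the counts below have no background share. Of the 47 genes higher in members, 13 were at least 1.5-fold higher in both libraries in fibroblasts with an Adamtsl2 UMI than in those without, and 0 lower. For Cyp4b1 the counts were 0 higher and 7 lower, with 6 cells in Heart1 and 35 in Heart2 holding the gene. The other score genes gave 13 higher for Mfap4, 12 for Fhl2, 8 for Trib2 and 4 for Apod, each with 0 lower, so the count for Adamtsl2 was level with that for Mfap4. Over all fibroblasts Efemp1 and Scara5 were not higher with Cyp4b1 in either library, and Ccl11 was higher with it in Heart2 only: cells with a Cyp4b1 UMI differed from those without by -0.60 and -0.10 in Efemp1, by -0.24 and -0.087 in Scara5 and by -3.21 and 1.04 in Ccl11, in Heart1 and Heart2. Among the 1005 fibroblasts that were no members, those with Adamtsl2 were higher in 3 of the 47 genes and lower in 0. The counts there were 4 higher and 0 lower for Trib2, 3 and 0 for Mfap4, and 3 and 1 for Fhl2. For Apod they were 1 and 2, and for Cyp4b1 0 and 14. The count for Adamtsl2 was therefore not particular to that gene. Cells with Adamtsl2 had a median of 12066 UMIs in Heart1 and 9358 in Heart2, against 11824 and 8576 in those without.

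The called genes were also read along the score, below the cut. Fibroblasts were set in 3 bands: the members, the next 140 cells (35 in Heart1 and 105 in Heart2) and the rest. Of the 47 higher genes, 34 fell from members over the next 140 to the rest in both libraries, and of the 36 lower genes 19 had the reverse order. The genes were called by setting members against these same other cells, so the step from the members is largely set by the call. The order was not counted over all genes, nor the step below the cut alone. Cilp was at 1591, 855 and 653 CPM in Heart1 and at 516, 245 and 79.3 in Heart2. Wisp2 was at 672, 279 and 148 CPM and at 239, 159 and 75.9, and Efemp1 at 120, 163 and 313 and at 273, 422 and 611. Eln fell sharply at the cut in Heart1 (606, 151 and 103 CPM) and slowly in Heart2 (399, 344 and 197). Scara5 was at 42.6, 38.1 and 95.8 CPM in Heart1, out of order, and at 95.1, 156 and 261 in Heart2. Compared with the next 140 cells alone, 29 genes were higher in members, of which 6 were among the 47. There 37 genes were lower, of which 4 were among the 36.

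**Figure D5:**
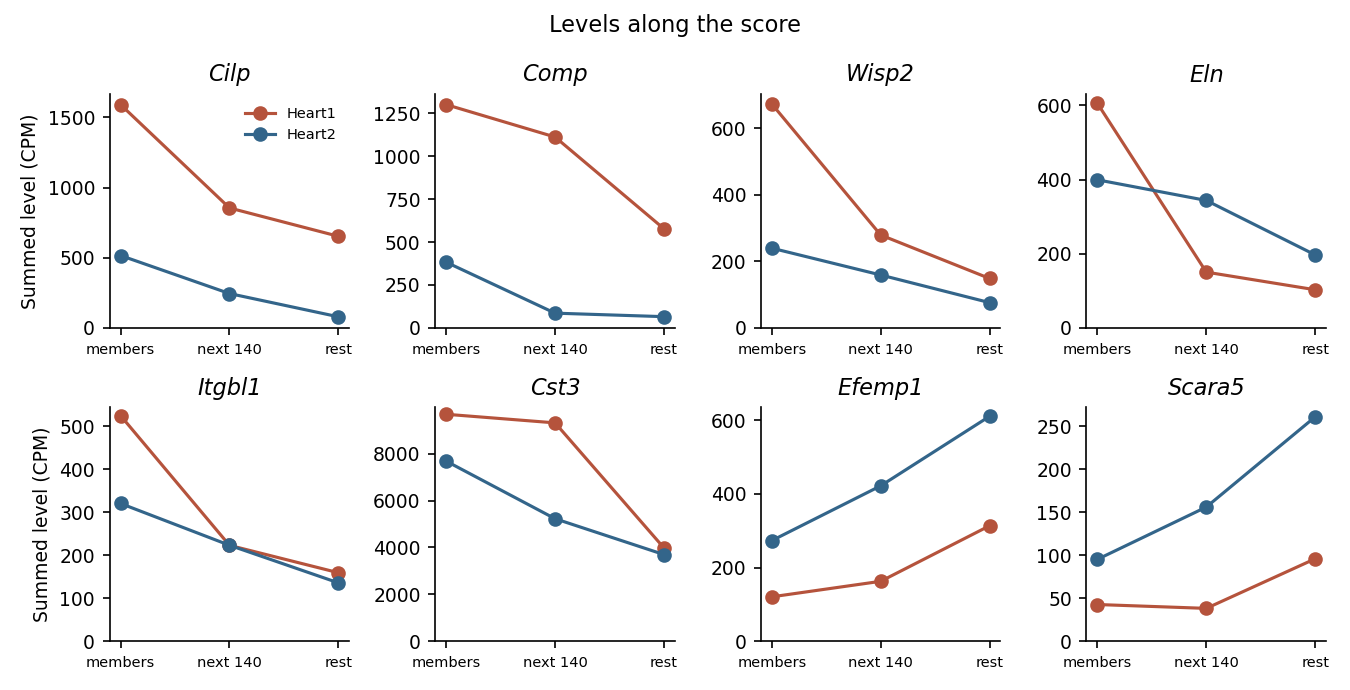
Summed level in CPM of 8 genes in members, the next 140 fibroblasts and the rest, with a line for each library (Heart1 red, Heart2 blue). Cilp and Wisp2 step down and Efemp1 steps up along the score in both libraries; Eln falls at the cut in Heart1 only.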

How the data were processed

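Heart cells sorted for mCherry were profiled with a droplet 3' kit, and Cell Ranger 3.0.2 and the build mm10 were used per the submitters' processing notes. The deposited values are a natural log (ln): 1 was added to a cell's UMIs scaled to 10000, as read from the values, since each cell summed to 10000 once the log was undone. Which tool scaled them, and how cells were filtered, is not given in the sources used here. Dividing by a cell's lowest value gave whole numbers for 4459440 of 4459440 values above 0 (within 1e-06), and these UMIs were summed per library and cell group. No count model was run, since the deposited unit is a log value.

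The table holds 15247 genes (15087 symbols matched the gene name table), with 3164 or more UMIs per cell. All columns were used (0 left out). It has 0 rows named for mCherry, and RNA of the reporter was not analysed here.

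Intervals are exact binomial and exact Poisson at 95% and cover counting error only. A share of 0 allows up to 3 counts of the total. Thinning drew 3000 UMIs from each cell (seed 1). Doublets were predicted with scrublet in scanpy 1.11.5 and kept. Python 3.11.15, numpy 2.4.6, pandas 2.3.3 and scipy 1.17.1 were used, and the comparison was tested on simulated data. Macrophages, read as background for shares, had a macrophage mean of at least 1.5 and above the fibroblast mean.

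The members, gene lists and markers were chosen with earlier results of these data known. The text names the 6 score genes and up to 4 called genes of each list. It also names the 15 higher and 10 lower of other genes with the largest mean difference, and the detected senescence core genes. Further list members (such as Acta2, Tgfb1, Inmt and Pi16), Pmepa1, Fn1 and Tnc were named after their values were seen. Predicted genes were counted but not named, and 1 gene that the rule names is not reported here. Alternatives changed the minimum level, pseudocount, scaling, threshold, score, comparison cells and depth, and left out a library, cells or each gene's highest cell.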

Additional observations from a re-analysis of the deposited data

How the results depend on the processing

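The 47 higher and 36 lower genes depend on the settings. A minimum of 50 CPM left 29 and 16, and no minimum gave 71 and 131. A pseudocount of 1 CPM gave 55 higher and 55 lower, and 20 CPM gave 28 and 12. Cells thinned to 3000 UMIs gave 102 and 126, of which 29 and 17 were among the first, and a 2-fold threshold 8 and 9. A score from thinned cells shared 95 of 140 members and gave 18 higher and 24 lower genes, of which 14 and 10 were among the first. A score without Mfap4 gave 36 higher and 22 lower genes (30 and 15 of the first ones). The next 140 cells as comparison gave 29 and 37 (6 and 4 of the first ones). With 1 library alone the counts ran from 146 to 335 higher and 133 to 381 lower. The members' share of fibroblasts in Heart1 and Heart2 was 14.6% and 7.45% with 100 members and 27.2% and 15.3% with 200, and 13.6% in Heart1 with z-scores taken within each library. The Cdkn2a share of members in Heart1 was 4.88% after thinning. Among the named genes that were called or in the score, direction turned for Wnt11 (0.25 after thinning, 0.13 against the next 140), Ccl11 (0.0046 with the score without Mfap4) and Cxcl1 (1.0 against the next 140). All are mean log2 differences, and the cause was not tested. Over 23 settings and 74 named genes, 1168 of 1700 values moved by less than the standard deviation of the 2 libraries, 528 by more and 4 turned. A turn was counted only for called genes and score genes, so changes of sign in the other genes were sorted by their size. Chosen after the data were seen, leaving out cells with a Comp UMI gave 50 higher and 53 lower genes (28 and 20 of the first ones), leaving out cells with a Wif1 UMI 42 and 31 (36 and 24), and leaving each gene's highest cell out of every sum 29 and 79 (29 and 35). No paired analysis was possible because there is 1 group and no comparison between samples. With 2 libraries of 1 group, whose cells cannot be tied to animals, the spread between animals is unknown. In Heart1 only 41 members limit what can be read, and genes found in few cells rest on those cells.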
